A study of Mus musculus with 12 samples.

Results

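The G1 cyclins and their kinases are the 8 genes whose proteins drive a cell from growth arrest towards S phase: the D-type cyclin genes Ccnd1, Ccnd2 and Ccnd3 with their kinase genes Cdk4 and Cdk6, and the E-type cyclin genes Ccne1 and Ccne2 with their kinase gene Cdk2. They were taken by symbol from 19938 mouse genes measured on 12 Affymetrix Mouse Gene 1.0 ST arrays. All 8 were measured, each by 1 probe set annotated to that symbol alone. No probe set named one of them together with another gene, so no choice between probe sets was needed. RNA came from mouse embryonic fibroblasts in 4 groups of 3 arrays: homozygous Rb1 S/S mutant cells, the Rb1 +/+ wild type matched to them (together the S set), homozygous Rb1 L/L mutant cells, and the Rb1 +/+ wild type matched to those (together the L set). Cells of all 4 groups were grown in 10% serum until passage 4 and then starved in 0.1% serum for 72 h. What either allele does to the protein is not stated in the labels, and neither is the origin of the 3 samples of a group (embryos, cultures or repeats of one). The p-values therefore rest on a spread between samples that may be technical, in whole or, in the L set, in part.

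Serum normally induces D-type cyclins, which bind CDK4 and CDK6 and start the phosphorylation of the retinoblastoma protein, the product of Rb1. Phosphorylation releases E2F transcription factors, whose targets include the genes of cyclin E, of CDK2 and of the DNA replication machinery, and cyclin E with CDK2 then completes the phosphorylation. The D-type cyclin genes are therefore usually placed upstream of the retinoblastoma protein, and Ccne1, Ccne2 and Cdk2 downstream of it.

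The promoters of Ccne1 and Cdk2 are shown because these were the 2 genes whose L/L values all lay above those of the other 9 arrays, although neither passed the test in L/L, and that of Cdk4 because its values were among the closest between the groups. The sequences are RefSeq's, build GRCm38.p6, from 250 bases before to 50 bases after the annotated start, 5′ to 3′ on the gene's strand. Capitals mark TCCCGC, a core of E2F sites, on either strand in Ccne1 and Cdk2 (in Cdk2 also the longer word TTTCCCGC that contains it), and the E-box CACGTG, a palindrome bound by MYC and related factors, in Cdk4.
Ccne1, chr7:38107441-38107740, minus strand: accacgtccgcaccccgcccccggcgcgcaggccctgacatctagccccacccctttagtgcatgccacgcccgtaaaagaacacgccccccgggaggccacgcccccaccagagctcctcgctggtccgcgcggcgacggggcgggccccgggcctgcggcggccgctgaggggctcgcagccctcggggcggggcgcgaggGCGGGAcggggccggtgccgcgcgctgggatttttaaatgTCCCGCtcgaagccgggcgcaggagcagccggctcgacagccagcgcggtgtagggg
Cdk2, chr10:128705002-128705301, minus strand: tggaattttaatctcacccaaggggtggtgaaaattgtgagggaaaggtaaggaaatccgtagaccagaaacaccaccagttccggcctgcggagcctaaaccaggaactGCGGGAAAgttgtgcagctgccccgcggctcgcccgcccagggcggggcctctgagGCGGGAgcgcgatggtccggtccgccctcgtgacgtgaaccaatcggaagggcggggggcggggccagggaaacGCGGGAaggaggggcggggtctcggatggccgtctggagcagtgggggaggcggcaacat
Cdk4, chr10:127063285-127063584, plus strand: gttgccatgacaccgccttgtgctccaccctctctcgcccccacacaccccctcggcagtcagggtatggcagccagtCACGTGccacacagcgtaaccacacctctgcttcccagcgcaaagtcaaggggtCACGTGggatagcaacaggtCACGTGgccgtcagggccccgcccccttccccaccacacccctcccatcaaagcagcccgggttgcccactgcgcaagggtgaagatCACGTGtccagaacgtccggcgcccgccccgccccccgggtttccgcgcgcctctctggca

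Promoters were found for 5 of the 8 genes, 6 promoters in all, since Ccnd3 has 2. The sites in Ccne1 began at −47 and −7 from the start, those of TCCCGC in Cdk2 at −140, −84 and −10, and the 4 E-boxes of Cdk4 at −172, −118, −98 and −11. The longer E2F words TTTCCCGC, TTTGGCGC, TTTCGCGC and TTTGCCGC were found on either strand in 1 of the 6 promoters, that of Cdk2, and in 2.26% of 32851 mouse promoters. TCCCGC was in 3 of the 6, those of Ccne1, Cdk2 and Cdk6, and in 20.0% of all promoters. CACGTG was in 2 of the 6, those of Cdk4 and Cdk6, and in 7.15% of all. The letters TTTGAA, the cell cycle homology region, were in none of the 6 and in 17.9% of all. These words were chosen with the sequences and the expression values known, and a match is a description of letters, not of binding.

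Values are the deposited log2 RMA values, so a difference of 1 is a factor of 2. Array medians lay between 6.85 and 7.01. One array, replicate 1 of the wild type in the S set, differed most from the rest, with an interquartile range of 3.10 against at least 3.39 on the other 11 arrays. Array 1 of L/L and array 1 of its wild type had a high level of the Y-linked gene Eif2s3y, as male cells do, and the other 10 arrays a low one. The samples of either L-set group were thus not all repeats of 1 sample. Rb1 RNA, which checks the labels only if an allele alters its amount, was 9.35 to 9.72 in S/S and 8.34 to 8.89 in its wild type, and 9.23 to 9.39 in L/L and 8.61 to 9.23 in its wild type. All 10 fibroblast markers were measured on every array, from 7.56 for Fap at its lowest to 13.7 for Vim at its highest, with Col1a1 at 12.2 to 13.1. None passed with limma in either mutant (1 in S/S and 0 in L/L at an unadjusted p under 0.05). Their mean log2 level was 11.37 to 11.54 in S/S against 11.31 to 11.67 in its wild type, and 11.44 to 11.60 in L/L against 11.60 to 11.78 in its wild type. In L/L 9 of the 10 had a negative difference, with a median of −0.19, and 4 were separated downwards, beside 5.1% of all genes. The part of either marker list in the results on the 8 genes was not tested. Of 10 macrophage and blood cell markers, which a fibroblast culture can also hold, none passed with limma in either mutant (1 in S/S and 0 in L/L at an unadjusted p under 0.05), but 9 of the 10 were separated upwards in S/S and 0 in L/L, beside 5.49% and 9.71% of all genes, and their mean log2 level was 8.71 to 8.84 in S/S against 7.81 to 8.14 in its wild type, and 7.08 to 8.75 in L/L against 7.46 to 9.48 in its wild type. In bulk RNA, fewer cells of a type and less RNA per cell cannot be told apart.

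None of the 8 genes passed the test in either mutant at an adjusted p under 0.05. Over all genes 0.12% passed in S/S and 0.0401% in L/L. At an unadjusted p under 0.05 with limma, 1 of the 8 was counted in S/S (Cdk6, beside 10.1% of all genes) and 3 in L/L (Ccne1, Ccne2 and Cdk2, beside 3.27%). In L/L cells the 3 genes of the cyclin E and CDK2 arm, Ccne1, Ccne2 and Cdk2, were each higher on all 3 mutant arrays than on any matched wild-type array, by 1.48-fold, 1.42-fold and 1.60-fold. Over all genes, 9.71% were separated upwards in this way. The 5 genes of the cyclin D arm differed by −0.32 to 0.06 in L/L and overlapped with wild type. In S/S cells all 8 genes overlapped with their wild type, where 11.8% of all genes did not, and the differences ran from −0.06 for Cdk4 to 0.42 for Cdk6. The median over the 8 was 0.03 in S/S, beside −0.04 over all genes, and 0.04 in L/L, beside 0.02 over all genes.

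**Figure D1:**
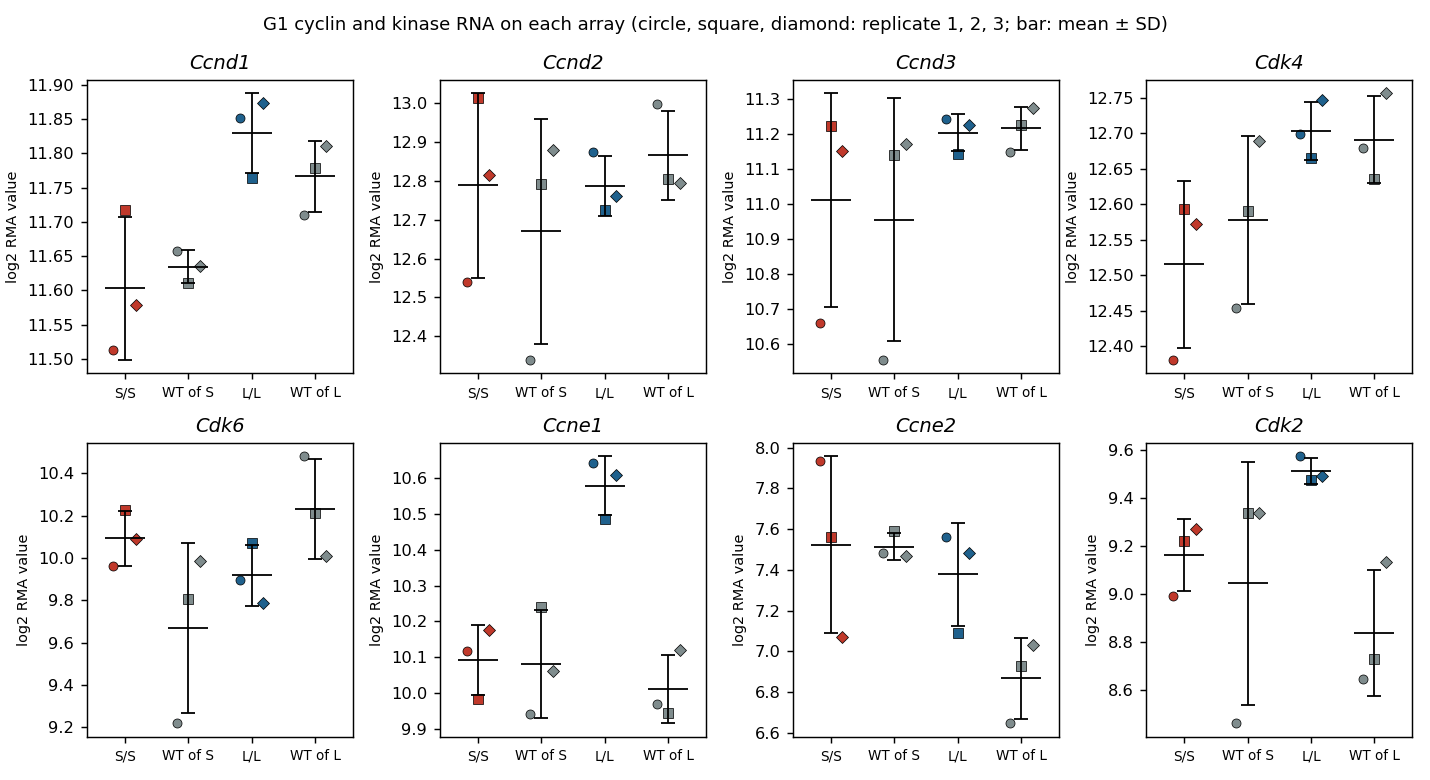
Log2 RMA value (vertical axis, scaled for each gene) of the 8 genes on each of 12 arrays, in 4 groups of 3, with the mean and SD as bars and the replicate number as the symbol. The 3 L/L arrays of Ccne1 and Cdk2 lie above all 9 other arrays, while for Ccnd1, Ccnd2, Ccnd3 and Cdk4 each mutant overlaps its wild type.

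Ccne1 encodes cyclin E1, the partner that activates CDK2 at the start of S phase. It was 10.64, 10.48 and 10.61 on the L/L arrays, against 9.97, 9.94 and 10.12 in their wild type. The lowest L/L array stood above the highest of all 9 other arrays, 10.24. Only Ccne1 and Cdk2 of the 8 genes did so, as did 2.26% of all genes. The means were 10.58 ± 0.08 in L/L and 10.01 ± 0.10 in its wild type (SD, n = 3 each), a difference of 0.57 (SE 0.11, 95% confidence interval 0.33 to 0.80). With limma the unadjusted p was 0.000152, the 19th smallest of 19938 genes, and the adjusted p was 0.155. When replicate 1 of the S-set wild type was left out, which has no part in the L/L means and enters only through the shared estimate of the spread, the difference was unchanged at 0.57 and passed with limma (adjusted p = 0.0313). This was 1 of the 12 fits that left out 1 array, and the adjusted p of the other 11 reached 0.822. With arrays weighted by their quality in limma it was 0.60 (adjusted p = 0.000999). In that fit 336 genes passed in L/L in place of 8, and the weights ran from 0.0774 for replicate 1 of the S-set wild type to 5.88 for array 2 of the same group.

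In S/S cells Ccne1 was 10.12, 9.98 and 10.18, against 9.94, 10.24 and 10.06 in their wild type. The groups overlapped, and the difference was 0.01 (SE 0.11, adjusted p = 0.976 with limma, 95% interval −0.22 to 0.24), so a rise of the size measured in L/L lies outside that interval. The S/S effect minus the L/L effect was −0.55 (SE 0.15, 95% interval −0.88 to −0.23). Its unadjusted p was 0.00296 and its adjusted p 0.51 with limma, so the difference between the mutants did not pass. Over all genes 0.015% passed this contrast and 6.5% had an unadjusted p under 0.05, as did 2 of the 8, Ccne1 and Cdk6. With array weights the Ccne1 contrast was −0.73 and passed with limma (adjusted p = 0.00812). The order of the group means was L/L, S/S, wild type of the S set and wild type of the L set, and the last 3 were separated by gaps of 0.01 and 0.07, below the SD within groups of up to 0.15.

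Cdk2 encodes the kinase that cyclin E activates. It was 9.57, 9.47 and 9.49 on the L/L arrays, against 8.65, 8.73 and 9.13 in their wild type. The L/L arrays lay within 0.10 of each other, and even the lowest was above the highest of the other 9 arrays, 9.34. The means were 9.51 ± 0.05 in L/L and 8.84 ± 0.26 in its wild type (SD, n = 3 each). The difference of 0.68 (SE 0.21, 95% interval 0.23 to 1.12) was the largest of the 8 genes in L/L and did not pass with limma (adjusted p = 0.73, unadjusted p = 0.00571). With array weights it was 0.72 and passed with limma (adjusted p = 0.00189).

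In S/S cells Cdk2 was 8.99, 9.22 and 9.27, against 8.46, 9.34 and 9.34 in their wild type. The array at 8.46 is replicate 1, the one with the narrow interquartile range, and it gave this group an SD of 0.51. The difference of 0.12 (SE 0.21, adjusted p = 0.837 with limma) turned to −0.17 without that array (adjusted p = 0.673), so these data give no settled direction for Cdk2 in S/S. The S/S effect minus the L/L effect was −0.56 (SE 0.29, adjusted p = 0.781 with limma), and with array weights it was −0.85 and passed (adjusted p = 0.0195). The L/L mean lay 0.35 above that of S/S, and the next gap, 0.12 between S/S and its wild type, was within the SD.

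Ccne2 encodes cyclin E2, the second activator of CDK2. It was 7.56, 7.09 and 7.48 on the L/L arrays, against 6.65, 6.93 and 7.03 in their wild type. The lowest L/L array and the highest wild-type array were close, at 7.09 and 7.03. The difference was 0.51 (SE 0.19, 95% interval 0.10 to 0.92) and did not pass (adjusted p = 1 with limma, unadjusted p = 0.0193). In S/S it was 7.94, 7.56 and 7.07, a wider spread than the 7.48, 7.59 and 7.47 of its wild type, with a difference of 0.01 (SE 0.19).

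For Ccne2 the wild types of the 2 sets differed more than either mutant did from its own. The wild type of the L set was lower than that of the S set by 0.65 (SE 0.19), and all 3 arrays of one lay below all 3 of the other (adjusted p = 0.0541 with limma). Over all genes, 8.71% passed this comparison of the same genotype and 16.1% were separated downwards. The L/L mean of 7.38 therefore stood below those of S/S, 7.52, and the wild type of the S set, 7.51, while the wild type of the L set, 6.87, was the lowest. The gaps among the upper 3 means, 0.01 and 0.14, were within the SD of up to 0.43.

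**Figure D2:**
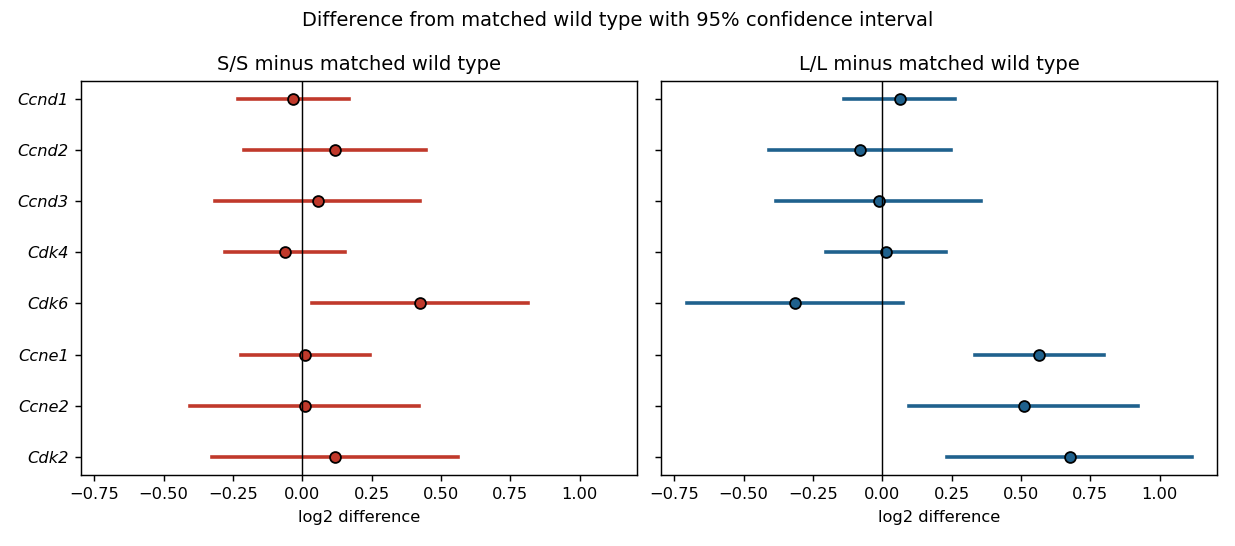
Log2 difference of each mutant from its matched wild type (horizontal axis) with the 95% confidence interval of limma's fit for the 8 genes, S/S on the left and L/L on the right. In L/L the intervals of Ccne1, Ccne2 and Cdk2 lie above 0, and in S/S that of Cdk6 does; none of these passed after adjustment over all genes.

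The D-type cyclin genes couple growth factor signals to the cycle, and their RNA was nearly level across the 4 groups. Ccnd1, cyclin D1, was 11.51, 11.72 and 11.58 in S/S, against 11.66, 11.61 and 11.64 in its wild type. In the L set it was 11.85, 11.76 and 11.87 in L/L, against 11.71, 11.78 and 11.81 in wild type. All 12 values lay within 0.36 of each other. The differences were −0.03 in S/S (95% interval −0.23 to 0.17) and 0.06 in L/L (95% interval −0.14 to 0.26), the narrowest intervals of the 8 genes. The largest gap between neighbouring group means, 0.13, was between the 2 wild types, whose arrays did not overlap although the difference did not pass (adjusted p = 0.421 with limma).

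Ccnd2 and Ccnd3 encode cyclins D2 and D3. Ccnd2 was 12.54, 13.01 and 12.81 in S/S, against 12.34, 12.79 and 12.88 in its wild type, and 12.87, 12.72 and 12.76 in L/L, against 13.00, 12.81 and 12.80 in its wild type. Both mutants overlapped with wild type, with differences of 0.12 in S/S (95% interval −0.21 to 0.45) and −0.08 in L/L (95% interval −0.41 to 0.25). Ccnd3 was 10.66, 11.22 and 11.15 in S/S, against 10.55, 11.14 and 11.17 in its wild type, and 11.24, 11.14 and 11.23 in L/L, against 11.15, 11.23 and 11.27 in its wild type. Its differences were 0.06 in S/S (95% interval −0.31 to 0.42) and −0.01 in L/L (95% interval −0.38 to 0.36). The order of the 4 group means had no gap above the largest SD within a group for Ccnd2 or Ccnd3. The probe set of Ccnd3 is annotated to 3 RefSeq transcripts, and its single value does not tell the 2 promoters apart.

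The low values of Ccnd2 and Ccnd3 in the S set were those of array 1 in both groups. Array 1 was below the mean of the other two by 0.37 in S/S and 0.50 in wild type for Ccnd2, and by 0.53 and 0.60 for Ccnd3. Cdk4 (0.20 and 0.19), Cdk2 (0.25 and 0.88) and Cdk6 (0.19 and 0.68) were also lower on these arrays. For Ccnd1 array 1 was 0.14 lower in S/S and 0.04 higher in wild type, and for Ccne2 it was 0.62 higher in S/S. These were also the arrays with the smallest interquartile ranges, 3.39 for S/S array 1 and 3.10 for the wild type. The part of array quality in these values was not tested. Without wild-type array 1 the S/S differences were −0.05 for Ccnd2 and −0.15 for Ccnd3, the opposite direction, and without both arrays numbered 1 they were 0.08 and 0.03. Neither passed in these fits.

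Cdk4 encodes a kinase activated by all 3 D-type cyclins. It was 12.38, 12.59 and 12.57 in S/S, against 12.45, 12.59 and 12.69 in its wild type, and 12.70, 12.67 and 12.75 in L/L, against 12.68, 12.64 and 12.76 in its wild type. All 12 arrays lay within 0.38 of each other. The differences were −0.06 (95% interval −0.28 to 0.15) in S/S and 0.01 (95% interval −0.20 to 0.23) in L/L, with adjusted p of 0.823 and 1 with limma.

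Cdk6 encodes the second D-cyclin kinase, also important in blood cells. Its difference was positive in S/S and negative in L/L. It was 9.96, 10.22 and 10.09 in S/S, against 9.22, 9.80 and 9.99 in its wild type. The lowest S/S array lay just under the highest wild-type array, and the lowest value of all, 9.22, was again wild-type array 1. The difference of 0.42 (SE 0.18, 95% interval 0.03 to 0.81) did not pass (adjusted p = 0.463 with limma). Leaving that array out gave 0.20, and leaving out other arrays gave up to 0.58.

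In the L set Cdk6 was 9.89, 10.07 and 9.78 in L/L, against 10.48, 10.21 and 10.01 in its wild type. The difference was −0.32 (SE 0.18, adjusted p = 1 with limma). The S/S effect minus the L/L effect was 0.74 (SE 0.26, 95% interval 0.19 to 1.29), the largest contrast between the mutants among the 8 genes, and it did not pass (adjusted p = 0.703, unadjusted p = 0.0124). The wild types again differed by more than the mutants did: that of the L set was 0.56 above that of the S set, with no overlap (adjusted p = 0.0716 with limma, beside 11.5% of all genes separated upwards), and the L/L and S/S means, 9.92 and 10.09, lay between them. The mean macrophage marker level also lay higher in S/S than in its wild type, without a marker that passed. Array by array their mean level and Cdk6 had no single order. Among S-set wild-type arrays both were lowest on array 1 and highest on array 3, and in L/L both were highest on array 2. In S/S, array 2 had the highest Cdk6 and the lowest macrophage level, and in the wild type of the L set array 1 did.

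**Figure D3:**
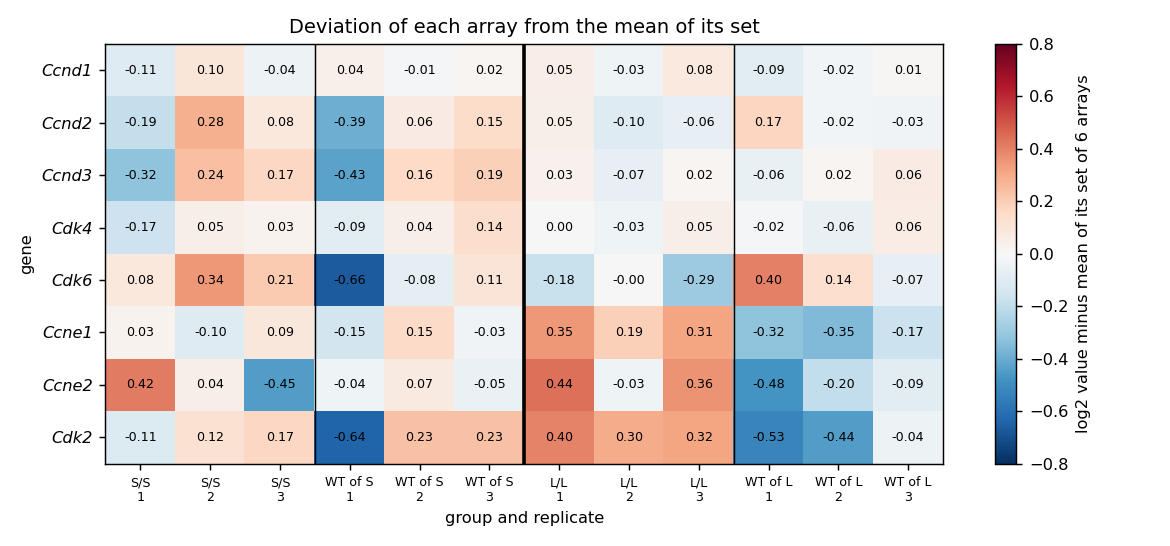
Log2 value of each of the 8 genes (rows) on each of 12 arrays (columns) minus the mean of the 6 arrays of its set, S set left of the thick line and L set right of it. Ccne1 and Cdk2 are positive on all 3 L/L arrays and negative on all 3 wild-type arrays of the L set, and array 1 of the S-set wild type is lowest for Cdk2 (−0.64) and Cdk6 (−0.66).

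With the mean of each set removed, Ccne1 and Cdk2 varied together over 12 arrays (Pearson r = 0.835, Spearman rho = 0.867), and so did Ccne1 and Ccne2 (r = 0.642, rho = 0.713). With the group means removed instead, r was 0.677 for Ccne1 and Cdk2 and 0.209 for Ccne1 and Ccne2. The values that follow have only the set means removed again. Without the arrays numbered 1 of the S set, r was 0.941 for Ccne1 and Cdk2 and 0.731 for Ccne1 and Ccne2 over 10 arrays. Ccnd2 and Ccnd3 had r = 0.868 over 12 arrays and 0.151 over those 10, and Ccnd3 and Cdk4 had 0.832 and 0.398, so both relations rested on the arrays numbered 1. Cdk6 ran against Cdk2 at −0.803, Ccne1 at −0.788 and Ccne2 at −0.777 over the 10 arrays, but at 0.06, −0.346 and −0.449 over 12. These are descriptions: the arrays share their sets and groups, and values with only the set means removed hold the L/L difference too.

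By the same measure over 12 arrays, the genes most like Ccne1 were Nsg1 (r = 0.945), Donson (0.939) and Bves (0.937). Nsg1 and Bves were 2 of the 8 genes that passed in L/L, by 1.03 (adjusted p = 0.0128 with limma) and 0.96 (adjusted p = 0.00185), and Donson, a replication fork gene, had 0.55 without passing. Between the wild types, L set minus S set, Nsg1 itself differed by −0.48 (adjusted p = 0.0435 with limma, beside 8.71% of all genes passing). That difference was −0.06 for Bves and −0.07 for Donson. Over the same 12 fits, Bves passed in 12 and Nsg1 in 8 of 12 fits. Cdk2 was most like Rrm2 (0.99), the regulated subunit of ribonucleotide reductase, then Brip1os (0.973) and Gnb4 (0.969). Ccne2 was most like Zfp275 (0.896), Pole4 (0.887) and Gjc1 (0.872). The nearest genes were Tlcd4, Vmn2r54 and Fam161a for Ccnd1 (0.829 to 0.853), Cltc, Gfpt1 and Tpm1 for Ccnd2 (0.966 to 0.978), and Ak5, Trim32 and Cmtm3 for Ccnd3 (0.979 to 0.984). For Cdk4 they were Prpf8, Kars and Trap1 (0.941 to 0.959), and for Cdk6 Olfr1314, Kif1b and Tmem87b (0.971 to 0.977). Each was picked as the highest over all other genes, and so is high in part by selection. None of these r was recomputed without the arrays numbered 1 of the S set, on which relations among the 8 genes rested. Tlcd4, Vmn2r54 and Fam161a, nearest to Ccnd1, had low values, with group means from 5.28 to 6.29. Those of Donson were 6.21 to 6.75. The 95th percentile of 1015 olfactory receptor genes, taken as a reference for unexpressed genes, was 6.3.

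The other genes of the pathway were read from 11 lists, with 100 of 103 entries measured. With limma 0 of them passed in S/S (12 of 100 at an unadjusted p under 0.05, close to the 10.1% of all genes) and 1 in L/L, Mcm6 (26 of 100 at an unadjusted p under 0.05, beside 3.27% of all genes), so the counts below are of direction, beside 42.4% of all genes with a positive difference in S/S and 55.9% in L/L. E2F-driven S phase genes, which code for replication proteins and lie downstream with Ccne1 and Cdk2, were positive for 17 of 17 in L/L with a median of 0.52 (16 or 17 with single arrays left out), and 12 of 17 were separated upwards from wild type, beside 9.71% of all genes. In S/S 3 of 17 were positive, with a median of −0.16, and 0 of 17 without wild-type array 1 of that set, where 48.3% of all genes were positive. For 16 of these 17 genes the wild type of the L set was itself below that of the S set. The median of that comparison was −0.44, beside −0.07 over all genes. In it 8 of the 17 were separated downwards, beside 16.1% of all genes. The part of this in the L/L counts was not tested. The list was chosen with the pattern in L/L and S/S known. Mcm6, a subunit of the replicative helicase, averaged 9.01 ± 0.02 in L/L and 7.84 ± 0.44 in its wild type (SD, n = 3 each), and rose by 1.17 (adjusted p = 0.0308 with limma). It passed in 3 of the 12 fits that left out 1 array. Dnmt1, the maintenance methyltransferase gene, differed by 0.68 in L/L and −0.21 in S/S, and Orc1, an origin recognition gene, by 0.52 and −0.37, without passing. The group means of Orc1 were low, from 5.96 to 6.59, around the 6.3 that was the 95th percentile of olfactory receptor genes. Between the wild types, L set minus S set, it differed by −0.63. Tk1, thymidine kinase, had −0.49 in S/S and 0.17 in L/L, the second of which was −0.065 when array 1 of the L-set wild type was left out. Dnmt1 in S/S was −0.11 without S/S array 1.

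**Figure D4:**
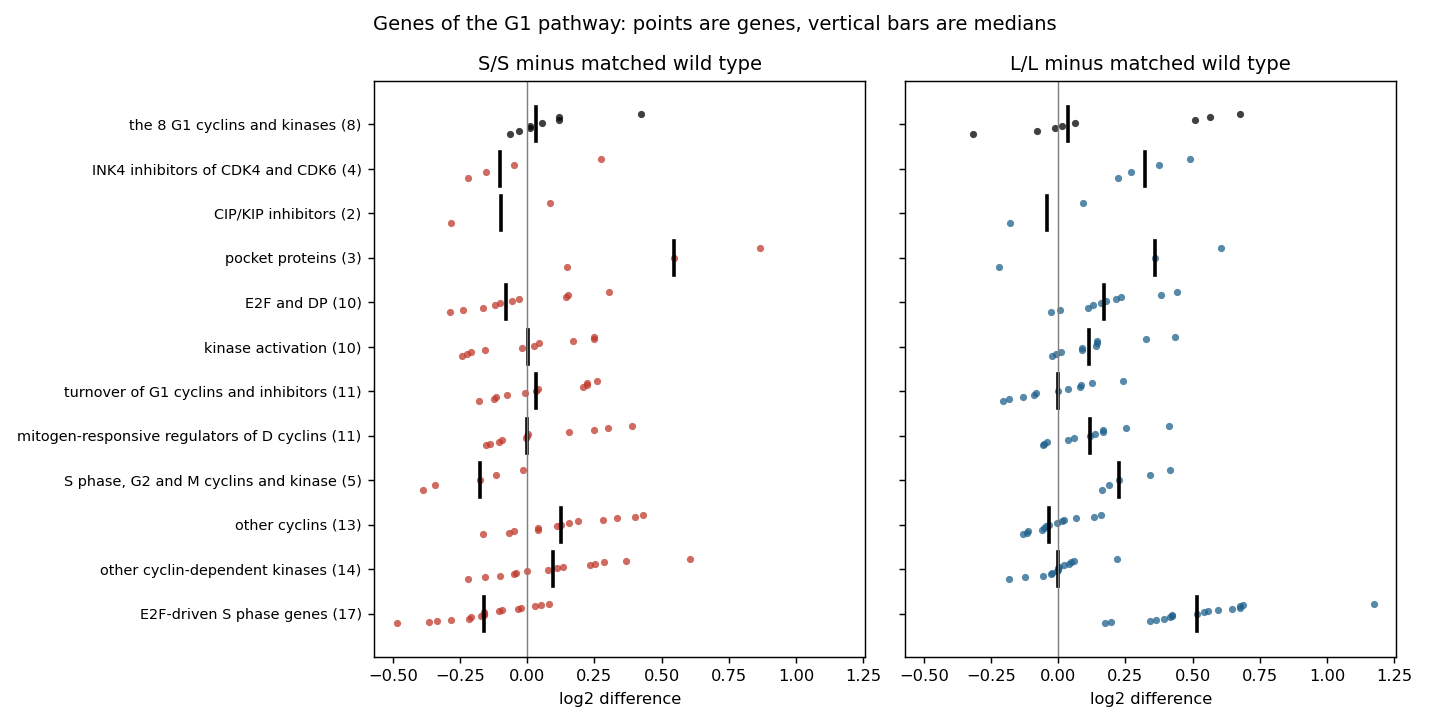
Log2 difference from matched wild type (horizontal axis) of each gene (point) in the 8 G1 cyclins and kinases and in 11 pathway lists, with the number of genes in brackets and the median as a vertical bar, S/S on the left and L/L on the right. All 17 E2F-driven S phase genes lie above 0 in L/L, and the 8 genes split there into 3 near 0.5 to 0.7 and 5 at or below 0.06.

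The E2F transcription factors link the 2 arms. Of 10 E2F and DP genes, 9 were positive in L/L, with a median of 0.17, and 3 in S/S, with a median of −0.08. For 7 of the 10 the wild type of the L set was below that of the S set, with a median of −0.13, beside −0.07 over all genes. In that comparison 4 passed downwards with limma and 4 were separated downwards, beside 5.17% and 16.1% of all genes. Upwards 2 were separated, beside 11.5% of all genes. The part of this in the L/L counts was not tested. E2f1, an activator E2F, was 9.65 ± 0.21 in L/L and 9.20 ± 0.16 in its wild type, and Tfdp1, a dimer partner, 9.98 ± 0.07 and 9.60 ± 0.14 (SD, n = 3 each), and neither passed (adjusted p = 0.943 and 0.426 with limma). E2f7, a repressor, differed by 0.16 in L/L and −0.17 in S/S, and E2f2 by −0.03 and −0.29. Between the wild types, L set minus S set, E2f1 differed by 0.18, Tfdp1 by −0.54, E2f7 by −0.89 and E2f2 by −0.18. Without wild-type array 1 of its set, E2f2 was −0.088 in S/S and E2f7 was 0.099 in L/L. Of the pocket protein genes, Rb1 differed by 0.87 in S/S and 0.36 in L/L, Rbl1, p107, by 0.15 and 0.61, and Rbl2, p130, by 0.55 and −0.22, and none passed. Rbl1 in S/S was −0.049 without wild-type array 1, and Rb1 in L/L was 0.18 without wild-type array 3.

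The inhibitors of these kinases did not pass either. All 4 INK4 genes, each coding for a protein that blocks CDK4 and CDK6, were positive in L/L, with a median of 0.32: Cdkn2a 0.37, Cdkn2b 0.27, Cdkn2c 0.49 and Cdkn2d 0.22. Leaving out 1 array moved 3 of these values most: without wild-type array 1 Cdkn2c was 0.20, and without wild-type array 3 Cdkn2b was 0.065 and Cdkn2a 0.24. The single value of Cdkn2a does not tell its transcripts, and so its protein products, apart. In S/S only Cdkn2b, at 0.28, was positive. Of the CIP/KIP genes, whose proteins inhibit cyclin E with CDK2, Cdkn1b differed by −0.28 in S/S and 0.09 in L/L and Cdkn1c by 0.08 and −0.18. Cdkn1b in L/L was −0.0064 without wild-type array 1, Cdkn1c in S/S was 0.0059 without S/S array 3, and Cdkn1a was not analysed here.

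Among 10 genes of kinase activation 8 were positive in L/L and 5 in S/S, or 2 in S/S without wild-type array 1. Cdc25a, the phosphatase that activates CDK2, differed by 0.43 in L/L and 0.03 in S/S, and Wee1, a kinase that restrains cyclin-dependent kinases, by 0.33 and −0.02. Cdc25b had −0.24 in S/S, and Mnat1, of the CDK-activating kinase, 0.25. Without wild-type array 1 Mnat1 was 0.064 and Cdc25a −0.087 in S/S. Of 11 genes for turnover of G1 cyclins and inhibitors, 5 were positive in L/L and 6 in S/S, with Skp2, which targets p27 for degradation, at 0.24 in L/L. Fbxw7, which targets cyclin E, had 0.22 and Cryab 0.21 in S/S, or 0.12 for Fbxw7 without S/S array 2 and 0.11 for Cryab without wild-type array 2. Of 11 mitogen-responsive regulators of D-type cyclins, 8 were positive in L/L and 5 in S/S: Myc differed by 0.39 in S/S, and Fosl1 by 0.30 in S/S and 0.41 in L/L, and Fos by 0.25 in L/L. The L-set wild type was below the S-set wild type for 6 of 10, 6 of 11 and 9 of 11 genes of these lists in turn. The medians of that comparison were −0.22, −0.01 and −0.17, beside −0.07 over all genes.

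The later cyclins act with CDK1 and CDK2 in S phase, G2 and mitosis. All 5 genes measured, Cdk1 among them, were positive in L/L, with a median of 0.23, and negative in S/S, with a median of −0.18. With single arrays left out, 4 or 5 were positive in L/L and 0 or 1 in S/S. All 5 were also lower in the wild type of the L set than in that of the S set, with a median of −0.63. In that comparison 4 of the 5 passed downwards with limma and 4 were separated downwards, beside 5.17% and 16.1% of all genes. The part of this in the opposite directions of the mutants was not tested. Cdk1, the mitotic kinase, was 10.33 ± 0.03 in L/L and 9.91 ± 0.31 in its wild type, and 10.00 ± 0.07 in S/S and 10.39 ± 0.11 in its wild type (SD, n = 3 each). Its L/L difference was 0.42, and 0.26 without wild-type array 1 of that set. Its S/S effect minus its L/L effect was −0.80 and did not pass (adjusted p = 0.364 with limma). Ccnb2 had −0.34 in S/S and Ccnf 0.34 in L/L. The cyclins and kinases outside the G1 and mitotic steps lay near 0 in L/L, with medians of −0.03 over 13 cyclins and 0.00 over 14 kinases, and slightly above it in S/S, at 0.12 and 0.10. Without array 1 of the S-set wild type these S/S medians were 0.086 and 0.036. Cdk18 had the largest difference of those kinases in S/S, 0.61 (adjusted p = 0.0998 with limma), followed in order of p by Cdk14 at 0.29, or 0.18 without S/S array 2. Of the other cyclins Ccnc had 0.43 and Ccnl1 0.40 in S/S, and Ccnl2 0.16 and Ccny −0.11 in L/L. Leaving out array 1 of the S-set wild type, Ccnc was 0.092 and Ccnl1 0.084, and leaving out array 2 of the L-set wild type, Ccnl2 was 0.080.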

How the data were processed

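RNA of 12 samples was hybridised to 1 array each. The log2 values were deposited by the authors as RMA values made with Partek, per the series design text and the submitters' processing notes: background-corrected, normalized between arrays and summarised per probe set. Neither a Partek version nor a genome build is stated in the labels. The log2 scale was read from the range, 2.43 to 14.67. Of 35556 probe sets, 21789 had 1 gene symbol in the platform annotation, and a gene was measured by the one with the highest mean, which gave 19938 genes. No dim genes were removed.

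A model of 4 group means was fitted to all 12 arrays with limma 3.58.1 in R 4.3.3 (8 residual and 5.19 prior degrees of freedom). Tests were two-sided and each contrast had its own Benjamini-Hochberg adjustment, over 19938 genes. Intervals are 95% intervals of the model, and precision is limited by having 3 arrays a group. The fit was tested on simulated data with planted shifts. Genes named from a list are those that passed and the 2 of smallest p in each mutant, besides the 3 genes most correlated with each of the 8; the comparisons between wild types were chosen after their values were seen. Leaving out single arrays for the pathway lists and the genes named from them was added after the data were seen. The 8 genes, the lists and the tests were chosen with earlier results of these data known. Same-numbered arrays did not deviate together in all pairs (r of −0.122 to 0.475 in the S set and 0.0576 to 0.601 in the L set), and the replicate number was not used as a block. Differently numbered arrays had r of −0.599 to 0.587 in the S set and −0.517 to 0.214 in the L set. Whether equal numbers mark pairs is not stated in the labels, and these values do not settle it. Skp1a was measured as Skp1 and Cdk3-ps as Cdk3; Cdkn1a and Ccnb1 were among the entries not analysed here.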

Additional observations from a re-analysis of the deposited data

How the results depend on the processing

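Of 24 results, the 8 genes in S/S, in L/L and in the difference between these effects, recomputed under 20 or 22 alternatives each, 474 of 512 values kept their direction and their side of the threshold. In L/L the differences of Ccne1 (0.51 to 0.62), Ccne2 (0.31 to 0.66) and Cdk2 (0.55 to 0.82) stayed positive throughout and those of Cdk6 (−0.43 to −0.18) negative. The number of the 8 genes passing in L/L became 2 with array weights and 0 or 1 with single arrays left out, and in the difference between the effects 2 with array weights. The genes passing in S/S, 24, were 12 after median centring, 44 with each set fitted alone, 415 with array weights, 42 with a term for sex, 37 with the replicate block, 3 without both arrays numbered 1 and 2 to 38 with single arrays left out. Those in L/L, 8, were 5 with each set fitted alone, 336 with array weights, 5 with the replicate block, 2 without both arrays numbered 1 and 2 to 26 with single arrays left out. Those in the difference, 3, were 8 after quantile normalization, 293 with array weights and 3 to 21 with single arrays left out. The replicate block changed no call on the 8 genes at the adjusted threshold. With it the unadjusted limma p of Cdk6 was 0.0135 in S/S, in place of 0.0354, and 0.0476 in L/L, in place of 0.103. In L/L that of Cdk2 was 0.0017, in place of 0.00571, and that of Ccne1 0.000562, in place of 0.000152. The cause of these changes was not tested.

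The values that turned sign passed neither in the fit reported nor after turning. In S/S, array weights gave 0.018 for Ccnd1, −0.034 for Ccnd3, −0.14 for Ccne1, −0.14 for Ccne2 and −0.12 for Cdk2, and quantile normalization gave −0.038 for Ccne1. Without both arrays numbered 1 they were 0.025 for Ccnd1, −0.071 for Ccne1, −0.21 for Ccne2 and −0.089 for Cdk2. With single arrays left out the S/S differences ran from −0.089 to 0.013 for Ccnd1, −0.048 to 0.24 for Ccnd2, −0.15 to 0.23 for Ccnd3, −0.059 to 0.091 for Ccne1, −0.20 to 0.24 for Ccne2, −0.17 to 0.26 for Cdk2 and −0.12 to 0.0049 for Cdk4. In L/L they ran from −0.046 to 0.018 for Ccnd3 and −0.015 to 0.046 for Cdk4, which median centring put at −0.0087. The difference between the effects for Ccnd3 ran from −0.13 to 0.24 and was −0.018 with array weights.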
